A study of Mus musculus with 39 samples.

Results

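KMT2C and KMT2D are the large catalytic subunits of a COMPASS-type histone methyltransferase that places methyl groups on lysine 4 of histone H3 at enhancers, and KDM6A, the demethylase of lysine 27 of the same histone, is a stable subunit of that complex. Measured here were 8 genes that encode other subunits of it: the enzymes Kmt2c and Kmt2d, the complex-specific subunits Paxip1 and Ncoa6, and the core shared by all enzymes of the family, Wdr5, Rbbp5, Ash2l and Dpy30. The genes were chosen by symbol, and all 8 were found among the 32285 genes of the single-cell files. In the testis, the marks placed by such enzymes are known to change as spermatogonia enter meiosis and as spermatids compact their chromatin.

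Mice of 2 genotypes were compared, both carrying the floxed allele of the X-linked gene (Kdm6a fl/y): controls lacked Cre, and cKO males carried the transgene Ddx4-Cre+, driven by the promoter of a germ-cell gene. Droplet RNA-seq with a 3' kit was made from dissociated whole testis, with 1 control and 1 cKO library. ATAC-seq and CUT&Tag for H3K27me3 were made from cells sorted for cKIT and labelled as spermatogonia (2 libraries of controls and 3 of cKO males per assay); a further CUT&Tag library was made with IgG. How many animals went into a library, and their age, is not stated in the labels. With 1 library per genotype no single-cell difference has a replicate check, so intervals below are exact 95% intervals that cover counting error only, and no p-value is given.

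The control library had 11252 barcodes with at least 3000 UMIs (unique molecular identifiers, 1 per captured transcript), and the cKO library had 8520. They held 132867391 and 99072889 UMIs, 57.8% and 57.5% of each library, and 30 barcode sequences occurred in both libraries. Barcodes were placed in 9 classes by lists of marker genes, and a class name below stands for the barcodes inside its marker gate. The limits of the gates were set on these data. Early spermatocytes were split by the summed level of Stra8, Tex15 and Zcwpw1, genes of meiotic entry, and late spermatocytes by the summed level of early meiotic markers such as Sycp1 and Sycp3. The classes held 195 control and 183 cKO barcodes of spermatogonia, 304 and 66 of Stra8/Tex15-high early spermatocytes, 372 and 260 of Stra8/Tex15-low early spermatocytes, 807 and 702 of Sycp-high late spermatocytes, 1333 and 1005 of Sycp-low late spermatocytes, 1819 and 1753 of round spermatids, 5025 and 3658 of elongating spermatids, 177 and 126 of Sertoli cells and 100 and 95 of Leydig cells. No class was given to 9.95% of control and 7.89% of cKO barcodes.

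The region just before the start site of a gene holds its core promoter, and the RefSeq table (build GRCm38.p6, the same assembly as mm10) gave such a region for 7 of the 8 genes. 4 of them are printed, 250 bases each up to the base before the start site, 5′ to 3′ on the strand of the gene, because they include the most GC-rich and the least GC-rich of the sequences of these 7 genes, with 2 between them. Capitals mark GGGCGG on either strand, the letters that Sp factors are known to bind, and neighbouring matches can overlap. The motif was chosen after the sequences had been read.
Kmt2c (chr5:25498784-25499033, minus strand): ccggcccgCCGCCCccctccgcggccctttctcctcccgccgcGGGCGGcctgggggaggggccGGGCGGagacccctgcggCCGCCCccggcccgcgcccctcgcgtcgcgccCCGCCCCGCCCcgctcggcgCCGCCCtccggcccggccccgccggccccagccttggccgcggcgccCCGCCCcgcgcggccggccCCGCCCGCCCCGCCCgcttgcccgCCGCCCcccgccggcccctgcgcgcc
Paxip1 (chr5:27791551-27791800, minus strand): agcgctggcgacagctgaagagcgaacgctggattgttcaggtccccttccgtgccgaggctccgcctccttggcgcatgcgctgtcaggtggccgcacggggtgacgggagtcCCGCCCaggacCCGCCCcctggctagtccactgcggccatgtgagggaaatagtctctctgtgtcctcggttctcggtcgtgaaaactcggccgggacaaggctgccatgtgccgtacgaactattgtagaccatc
Dpy30 (chr17:74316434-74316683, minus strand): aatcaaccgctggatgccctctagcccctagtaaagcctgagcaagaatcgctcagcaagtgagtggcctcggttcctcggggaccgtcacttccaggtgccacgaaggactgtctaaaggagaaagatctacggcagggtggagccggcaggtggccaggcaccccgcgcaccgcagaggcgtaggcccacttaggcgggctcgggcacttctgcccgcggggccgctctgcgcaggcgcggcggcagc
Ncoa6 (chr2:155440784-155441033, minus strand): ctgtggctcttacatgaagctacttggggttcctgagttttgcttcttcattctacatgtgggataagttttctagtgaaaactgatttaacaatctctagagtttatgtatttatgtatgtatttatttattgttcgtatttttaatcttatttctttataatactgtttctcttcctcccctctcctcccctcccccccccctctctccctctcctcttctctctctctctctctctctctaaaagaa

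The Kmt2c sequence held 48 CpG dinucleotides and was 91.6% G or C, and 99.8% of the 32841 start sites in the table had fewer CpGs. Its neighbour in function, Kmt2d, had 26 CpGs before its start site (chr15:98871206-98871455, minus strand), Paxip1 had 22, the 4 start sites of Dpy30 had 34, 28, 21 (the one printed) and 1, Wdr5 12 (chr2:27514897-27515146, plus strand) and Rbbp5 10 (chr1:132477117-132477366, plus strand). The median over all start sites was 6. Ncoa6 stood at the other end with 1 CpG and 38.4% G or C. The start sites of Ncoa6, of Kmt2d and the printed one of Dpy30 lie inside genes that span chr2:155390656-155473911, chr15:98831669-98874077 and chr17:74299474-74323944 on the minus strand, so these sequences are not the regions before the outermost ends of the genes. The start sites of Kmt2c and Paxip1 lie less far inside their spans, which end at 25498855 and 27791672, within the printed sequences. The hexamer GGGCGG was found in Kmt2c (12 matches), Kmt2d (4), Paxip1 (2) and Wdr5 (1) and in 32.7% of all start sites. In the printed Paxip1 sequence the matches began 136 and 125 bases before the start site. No match was found in Ncoa6, in Rbbp5 or at any Dpy30 start site. CCAAT, bound by NF-Y, was found in Dpy30 alone among the 7 genes, before the start site at 17:74323944, and in 33.9% of all start sites. TATAAA, the core of a TATA box, was found in Ncoa6 alone, beginning 94 bases before the start site, and in 12.4% of all start sites. CCGGAAG, bound by ETS factors, was found in none of the 7 genes and in 6.91% of all start sites. These letters were also searched on both strands. A match says only that the letters are present.

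Kdm6a itself was read first, since it checks the labels. Over all barcodes, the control library had 304 UMIs of Kdm6a (2.29 CPM, UMIs of the gene per 1000000 UMIs of the library or class) and the cKO library 75 (0.757 CPM), a log2 ratio of cKO over control of -1.60 (interval -1.98 to -1.23). In Stra8/Tex15-high early spermatocytes, where the control level was highest, 106 UMIs (81.0 CPM) stood against 5 (17.6 CPM). The level was lower in cKO in all 7 germ-cell classes, with an interval below 0 in 5 of them, the exceptions being spermatogonia (20 UMIs against 8) and Sycp-low late spermatocytes (5 against 3). Of the somatic classes, Sertoli cells had 14 UMIs against 20 (log2 ratio 0.76, -0.30 to 1.86) and Leydig cells 13 against 7 (-0.56, -2.12 to 0.87), both with intervals that include 0. Whether the remaining UMIs come from the deleted allele or from cells that kept the gene was not tested.

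Of Kmt2c and Kmt2d, Kmt2c had the steeper stage profile, and it resembled Kdm6a in shape. In the control library its level was 66.8 CPM in spermatogonia, 221 (interval 196 to 248) in Stra8/Tex15-high early spermatocytes, 49.9 in Stra8/Tex15-low early spermatocytes, 10.9 in Sycp-high and 9.34 in Sycp-low late spermatocytes, 3.40 in round and 2.95 in elongating spermatids, 92.1 in Sertoli cells and 48.4 in Leydig cells. The highest class was separated from the next, Sertoli cells, by intervals that did not overlap, and lay 74.8-fold above the lowest. Sertoli cells and spermatogonia overlapped in their intervals, as did spermatogonia and Stra8/Tex15-low early spermatocytes, and the spermatid classes. Where classes were taken from clusters of barcodes instead of gates, Sertoli cells had the highest level in both libraries. The share of Stra8/Tex15-high early spermatocytes with a Kmt2c UMI, after each cell was thinned to 3000 UMIs, was 41.8% (exact binomial interval 36.2 to 47.5) in control and 47.0% (34.6 to 59.7) in cKO, and without thinning 50.3% and 54.5%. Elongating spermatids had the lowest share in control, 1.21% thinned and 2.35% unthinned, at a median depth of 6920 UMIs against 3770 in the Stra8/Tex15-high class. Free RNA, read from barcodes with at most 100 UMIs, could make up at most 7.35% of all UMIs of control elongating spermatids. Kmt2c had 15.0 CPM in free RNA against 2.95 in that class, so the part among its own UMIs could be larger. The 74.8-fold range is taken against that class. No class that should lack Kmt2c was at hand to give a background share.

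Across the 9 classes of the control library, the log2(level + 1) of Kmt2c and Kdm6a had a Pearson r of 0.94, and 0.92 in the cKO library. In the cKO library Kdm6a had from 1 UMI (Sycp-high late spermatocytes) to 20 (Sertoli cells) per class. Correlations with it there rest on these few UMIs. Its highest cKO class was Sertoli cells, and that of Kmt2c was Stra8/Tex15-high early spermatocytes. Within each r the classes share a library but differ in median depth, in control from 3770 UMIs (Stra8/Tex15-high) to 23261 (Sycp-low). The r is a description of 9 points. A like shape was not particular to Kmt2c. Kmt2a, the enzyme of the MLL1 complex, had control levels of 210 CPM in spermatogonia and 193 in Stra8/Tex15-high early spermatocytes. It had 1.07 in Sycp-low late spermatocytes. How many of all genes share this shape was not counted. Kmt2d, the paralog of Kmt2c, had an r with Kdm6a of 0.28 in control and 0.61 in cKO, and with Kmt2c of 0.56 in control and 0.76 in cKO. The genes whose control profiles were most like that of Kmt2c, among 10831 genes with at least 500 UMIs in gated barcodes, were Fchsd2, Chuk and Ric1, each with an r of 0.97. For Kmt2d they were Tacc1, Mib2 and Usp10, each with 0.96. In the cKO library, which did not choose them, the r with Kmt2c was 0.78, 0.94 and 0.87 and that with Kmt2d 0.89, 0.84 and 0.99. For each of the other 6 genes, the most like 3 had an r of at least 0.94 in control: Snrpg, Hspbap1 and Eif5b for Paxip1, Hist1h2ba, Gnasas1 and Plekha8 for Ncoa6, Cse1l, Cabin1 and 1110059G10Rik for Wdr5, Nkiras1, Gpn3 and Ino80 for Rbbp5, Dync1li2, Yeats4 and Ralgds for Ash2l, and 4930572O13Rik, Cemip and Gm44570 for Dpy30. In cKO the r of these 18 genes ran from 0.59 (Gm44570) to 0.98 (Yeats4).

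Kmt2d had another profile. Its control level was 6.83 CPM in spermatogonia (9 UMIs), 12.2 in Stra8/Tex15-high and 22.3 in Stra8/Tex15-low early spermatocytes, 31.8 (interval 28.8 to 34.9) in Sycp-high late spermatocytes, 14 in Sycp-low late spermatocytes, 1.82 in round and 2.50 in elongating spermatids, 40.9 (29.7 to 54.9) in Sertoli cells and 14 in Leydig cells. Thus Sycp-high late spermatocytes had the highest germ-cell value and Sertoli cells the highest of all, with overlapping intervals. The interval of Stra8/Tex15-low early spermatocytes (16.5 to 29.3) also overlapped that of Sycp-high late spermatocytes. In cKO the Sycp-high value of 21.2 (18.4 to 24.3) overlapped both early classes, at 18.0 (12.0 to 26.1) and 17.6 (5.70 to 41.0), and spermatogonia, at 13.6 (7.61 to 22.4). A Kmt2d maximum in Sycp-high late spermatocytes was therefore set apart from Stra8/Tex15-low early spermatocytes in neither library, and from spermatogonia in control alone. The Sertoli value of 40.9 became 73.2 CPM where classes were taken from clusters. The control Sertoli gate held a median of 227 UMIs of elongating spermatid markers per 10000 UMIs, against 92 in cKO, 115 against 183 of Sertoli markers, and at most 10% free RNA against 0.878%. With free RNA subtracted the control Sertoli value of Kmt2d was 44.0 CPM. The part of the spermatid markers in the Sertoli levels was not tested.

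PAXIP1 and NCOA6 are found only in the KMT2C and KMT2D complexes within this enzyme family, and PAXIP1 also acts in the response to DNA breaks. Paxip1 had a control level of 42.5 CPM in spermatogonia, 32.9 in Stra8/Tex15-high and 17.4 in Stra8/Tex15-low early spermatocytes, 12.4 in Sycp-high and 13.2 in Sycp-low late spermatocytes, 21.4 in round and 5.12 in elongating spermatids, 11.2 in Sertoli cells and 11.8 in Leydig cells. In control the value in round spermatids (interval 19.7 to 23.2) lay above both late spermatocyte classes and below spermatogonia (32.1 to 55.2), and overlapped Stra8/Tex15-low early spermatocytes (12.3 to 23.7). In cKO round spermatids, at 19.0 (17.4 to 20.7), again lay above late spermatocytes but overlapped spermatogonia, at 28.1 (19.1 to 39.9), and Sertoli and Leydig cells had higher values, at 19.9 (11.8 to 31.4) and 21.7 (12.4 to 35.2). Ncoa6, a coactivator of nuclear receptors, had 39.5 in spermatogonia, 55.0 and 75.2 in Stra8/Tex15-high and Stra8/Tex15-low early spermatocytes, 52.2 in Sycp-high and 28.1 in Sycp-low late spermatocytes, 13.7 in round and 19.9 in elongating spermatids, 36.3 in Sertoli cells and 15.1 in Leydig cells. Its range over classes was 5.49-fold, against 74.8-fold for Kmt2c. Its highest value was that of Stra8/Tex15-low early spermatocytes in both libraries, with intervals that overlapped those of the Stra8/Tex15-high class (64.3 to 87.5 and 43.1 to 69.3 in control, 45.4 to 69.8 and 21.8 to 73.6 in cKO).

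The 4 core subunits, on which every enzyme of the family depends, did not share a profile. WDR5 and RBBP5 hold the catalytic domain, and both genes had their highest control value in spermatogonia. Wdr5 had 105 CPM there (138 UMIs), 61.9 and 55.2 in Stra8/Tex15-high and Stra8/Tex15-low early spermatocytes, 30.4 in Sycp-high but 7.07 in Sycp-low late spermatocytes, 13 in round and 5.09 in elongating spermatids, 17.7 in Sertoli cells and 10.8 in Leydig cells. Rbbp5 was thinly sampled, with 451 UMIs in the whole control library: 14.4 CPM in spermatogonia, 10.7 and 6.23 in the early, 7.70 and 5.87 in the late spermatocyte classes, 0.608 in round and 0.673 in elongating spermatids, 9.30 in Sertoli cells and 4.30 in Leydig cells. Its interval in spermatogonia (8.69 to 22.5, 19 UMIs) overlapped those of Stra8/Tex15-high early spermatocytes (5.85 to 18.0) and Sertoli cells (4.46 to 17.1), and with a minimum of 5000 UMIs per barcode the Stra8/Tex15-high class was highest in control. The spermatid classes of Rbbp5 lay below all germ-cell classes before them.

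ASH2L forms a dimer with RBBP5 that activates the enzymes, and DPY30 binds ASH2L. Ash2l had 188 CPM in control spermatogonia, 110 and 141 in the Stra8/Tex15-high and Stra8/Tex15-low early classes, 223 (interval 215 to 231) in Sycp-high and 218 (213 to 223) in Sycp-low late spermatocytes, 117 in round and 31.9 in elongating spermatids, 80.0 in Sertoli cells and 50.5 in Leydig cells. The late spermatocyte classes overlapped, and which of them was higher differed between libraries. Dpy30 had 172 in spermatogonia, 89.4 and 80.6 in the early classes, 62.5 and 59.4 in the late classes, 374 (367 to 381) in round and 97.6 in elongating spermatids, 121 in Sertoli cells and 86 in Leydig cells. In control, late spermatocytes thus had the lowest values of Dpy30 and the highest of Ash2l, its binding partner, although Sycp-low late spermatocytes overlapped spermatogonia (166 to 213) for Ash2l. In cKO both late classes, at 201 (192 to 210) and 213 (207 to 219), overlapped spermatogonia (158 to 209) for Ash2l, and Dpy30 in Stra8/Tex15-high early spermatocytes, at 63.2 on 18 UMIs, lay between the late classes at 64.1 and 60.8. DPY30 protein is small and is shared with complexes outside this family, which RNA levels cannot separate.

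**Figure D1:**
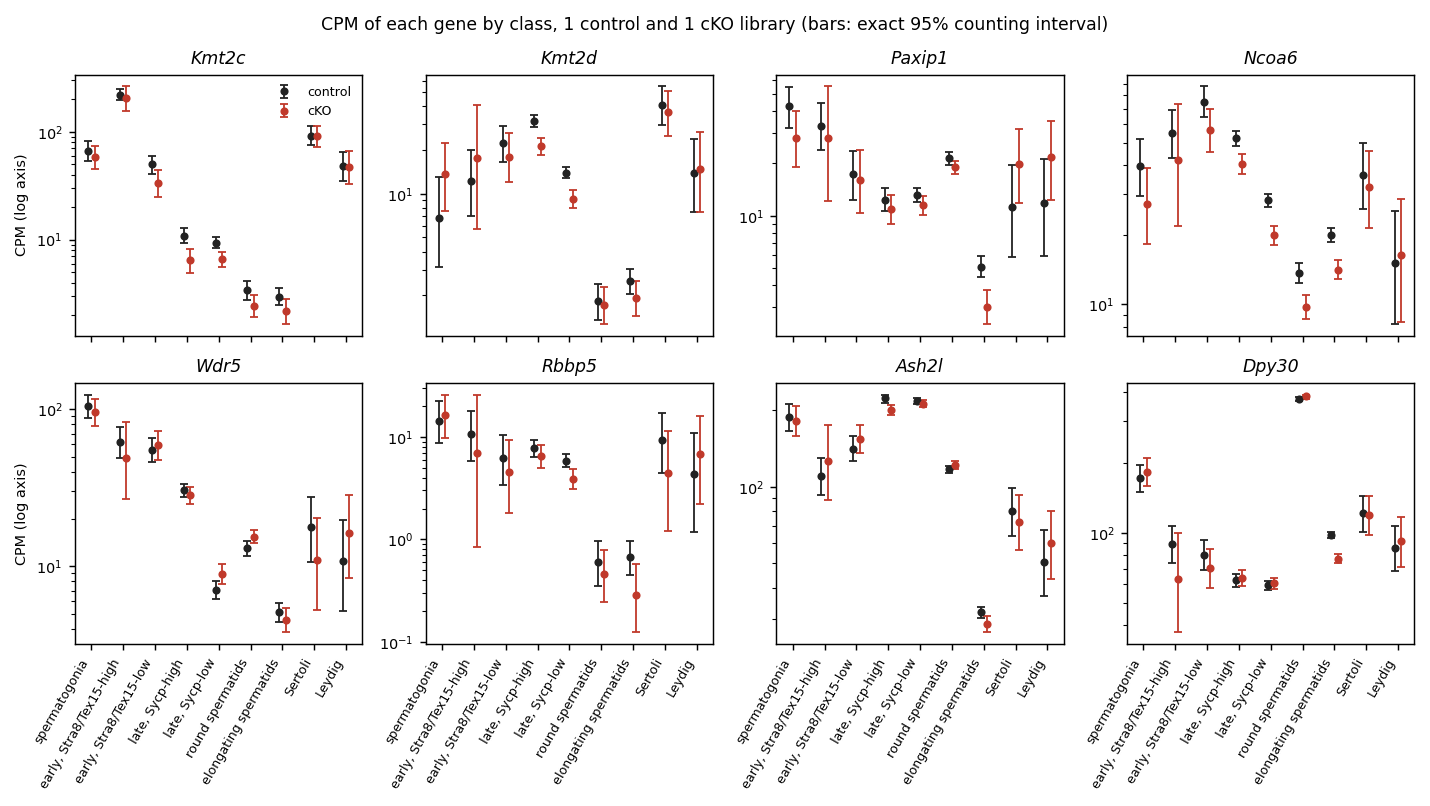
Level of each of the 8 genes (y axis, CPM on a log axis) in 9 marker-gated classes (x axis) of the control library (black) and the cKO library (red), with bars for exact 95% counting intervals. The stage with the highest level differs between genes: 221 CPM for Kmt2c in Stra8/Tex15-high early spermatocytes, 105 for Wdr5 in spermatogonia and 374 for Dpy30 in round spermatids, in control.

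Of the 8 genes, 6 had the same highest class in control and cKO, among them Rbbp5 on 19 and 18 UMIs. The exceptions were Paxip1, highest in Stra8/Tex15-high early spermatocytes in cKO on 8 UMIs, and Ash2l, highest in Sycp-low late spermatocytes in cKO. That Paxip1 value, 28.1 CPM, was level with cKO spermatogonia, which were highest under some alternatives. The share of all genes with the same highest class was not counted. The level itself was compared over all barcodes and then within classes. Over all barcodes, control and cKO levels in CPM were 11.2 and 7.29 for Kmt2c (log2 ratio -0.62, interval -0.75 to -0.49), 9.78 and 6.62 for Kmt2d (-0.56, -0.70 to -0.43), 26.2 and 18.1 for Ncoa6 (-0.53, -0.61 to -0.45) and 3.39 and 2.33 for Rbbp5 (-0.54, -0.78 to -0.31). Those of Paxip1 were 12.9 and 11.8 (-0.12), of Ash2l 128 and 126 (-0.03), of Wdr5 13.5 and 14 (0.05) and of Dpy30 145 and 164 (0.18).

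Only Kmt2c was at least 1.5-fold lower in cKO over all barcodes, 1 of 8 genes, beside 4.02% of the 17285 genes with at least 100 UMIs in both libraries together. The median log2 ratio was -0.33 over the 8 genes and -0.02 over all these genes. With the 9 classes summed in the proportions of the control library, Kmt2c had -0.35, Kmt2d -0.47, Ncoa6 -0.45, Rbbp5 -0.46, Paxip1 -0.24, Ash2l -0.04, Wdr5 0.05 and Dpy30 -0.04. The Kmt2c difference shrank, the Paxip1 difference grew and the Dpy30 difference changed sign under this sum, and the other 5 ratios stayed within the counting intervals of the values over all barcodes. The sum is an alternative that was added after the data had been seen. Stra8/Tex15-high early spermatocytes, where Kmt2c was highest, made up 2.70% of control and 0.775% of cKO barcodes, and round spermatids, where Dpy30 was highest, 16.2% and 20.6%. In whole-library sums, fewer cells of a class and less RNA per cell cannot be told apart.

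Within Stra8/Tex15-high early spermatocytes the control library had 289 UMIs of Kmt2c (221 CPM) and the cKO library 58 (204 CPM). The log2 ratio was -0.12 (interval -0.55 to 0.29). The interval includes no difference. Of the 3 genes with at least 100 UMIs in this class, 0 were 1.5-fold lower, beside 8.96% of genes. Likewise 0 of 4 were lower in spermatogonia (6.6% of genes), 0 of 5 in Stra8/Tex15-low early spermatocytes (9.3%), 0 of 3 in Sertoli cells (6.69%) and 0 of 1 in Leydig cells (8.52%). Genes with fewer UMIs are not in these counts. Among them in spermatogonia, Paxip1 had 56 UMIs against 31 (-0.60, -1.28 to 0.06), past 1.5-fold, and Ncoa6 52 against 30 (-0.54, -1.24 to 0.14). Kmt2d (9 against 15, 0.99, -0.29 to 2.37) and Rbbp5 (19 against 18, 0.18, -0.84 to 1.19) went the other way. All these intervals include 0. At 66 cKO barcodes the Kmt2c interval in the Stra8/Tex15-high class also includes -0.50, the ratio of this gene in Sycp-low late spermatocytes.

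In Stra8/Tex15-low early spermatocytes 2 of 5 genes had whole intervals below 0, beside 21.8% of 5902 genes. There Kmt2c had 112 UMIs (49.9 CPM) against 52 (33.5 CPM), with a log2 ratio of -0.57 (-1.08 to -0.09), and Ncoa6 169 (75.2 CPM) against 88 (56.7 CPM), with -0.41 (-0.80 to -0.03), while Kmt2d had -0.30 (-1.03 to 0.39). Of all genes in this class, 9.81% lay at or below the ratio of Kmt2c and 18.4% at or below that of Ncoa6, and among genes spanning over 100 kb 18.5% lay at or below Kmt2c.

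In both late spermatocyte classes the intervals of both enzymes and of Ncoa6 lay below 0. In Sycp-high late spermatocytes these and Ash2l made 4 of 8 genes, beside 26.0% of all genes, and in Sycp-low late spermatocytes these and Rbbp5 made 4 of 8, beside 26.7%. Whether these ratios differ from those of the early classes was not tested. In Sycp-high late spermatocytes 150 UMIs of Kmt2c (10.9 CPM) in the control library stood against 62 (6.44 CPM) in the cKO library, for a log2 ratio of -0.76 (-1.21 to -0.32). For Kmt2d, 437 UMIs (31.8 CPM) stood against 204 (21.2 CPM), and the log2 ratio was -0.58 (-0.83 to -0.34). For Ncoa6, 718 (52.2 CPM) stood against 390 (40.5 CPM), with a log2 ratio of -0.36 (-0.55 to -0.18). The core subunits lay nearer to 0 in this class, at -0.15 (-0.23 to -0.06) for Ash2l, -0.10 for Wdr5, 0.04 for Dpy30 and -0.26 (-0.73 to 0.21) for Rbbp5, and Paxip1 had -0.18. 1 of the 8 genes, Kmt2c, was at least 1.5-fold lower, beside 3.75% of 9766 genes. With gates 1.5 times stricter (270 and 166 barcodes), Kmt2c had -0.43 and Wdr5 -0.46.

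In Sycp-low late spermatocytes 445 UMIs of Kmt2d (14 CPM) in the control library stood against 201 (9.19 CPM) in the cKO library, for a log2 ratio of -0.61 (-0.86 to -0.37). For Rbbp5, 186 UMIs (5.87 CPM) stood against 85 (3.89 CPM), with a log2 ratio of -0.60 (-0.98 to -0.22). These 2 of 8 genes were at least 1.5-fold lower, beside 4.11% of 11306 genes. Kmt2c had -0.50 (-0.80 to -0.21) and Ncoa6 -0.50 (-0.67 to -0.33). Wdr5 lay on the other side, with 224 UMIs (7.07 CPM) against 195 (8.92 CPM) and a log2 ratio of 0.33 (0.05 to 0.62), and 97.1% of the genes in this class had a ratio at or below it. Gates 1.5 times stricter left 331 control and 168 cKO barcodes in this class. With them Wdr5 had -0.05, Kmt2c -0.20, Kmt2d -1.23 and Rbbp5 -1.55, while Ncoa6 had -0.51. The direction for Wdr5 and the sizes for Kmt2c, Kmt2d and Rbbp5 thus differed between gates. Their intervals with the stricter gates are not given here, so an effect of the gate cannot be told apart from counting error on fewer barcodes. The median over the 8 genes was -0.22 in Sycp-high and -0.35 in Sycp-low late spermatocytes, and over all genes -0.05 and -0.04.

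Spermatids came next in development. Round spermatids had 383 UMIs of Ncoa6 (13.7 CPM) in the control library against 278 (9.75 CPM) in the cKO library, for a log2 ratio of -0.49 (-0.72 to -0.26). Kmt2c had -0.47 (-0.94 to -0.01), Wdr5 0.25 (0.04 to 0.45) and Dpy30, at its highest level, 0.04, with an interval that reached 0. Paxip1 had -0.17, and 3 of 7 genes (Kmt2c, Paxip1 and Ncoa6) had whole intervals below 0, beside 27.2% of all genes. In this class 0 of 7 genes were 1.5-fold lower, beside 7.01% of genes. Elongating spermatids had 213 UMIs of Paxip1 (5.12 CPM) against 83 (3.01 CPM), and the log2 ratio was -0.76 (-1.15 to -0.39). Paxip1 was the 1 of 7 genes at least 1.5-fold lower there, beside 6.04% of genes. Ncoa6 had -0.49 (-0.67 to -0.32), Dpy30 -0.33 (-0.41 to -0.26) and Ash2l -0.15 (-0.28 to -0.02) there, where the median of all genes was -0.11. With Paxip1 these made 4 of 7 genes with whole intervals below 0, beside 32.1% of all genes. In elongating spermatids the median of elongating markers was 2038 per 10000 UMIs in control and 2276 in cKO, and of round markers 7.6 and 5.56. In round spermatids these medians were 146 and 92.2, and 47.7 and 48.5. The part of such differences within the gates in the spermatid ratios was not tested. The somatic classes had log2 ratios of -0.01 (Sertoli cells, -0.45 to 0.43) and -0.03 (Leydig cells, -0.71 to 0.64) for Kmt2c. The share of Sertoli barcodes with a Kmt2c UMI went against the near-equal levels. Thinned to 3000 UMIs it was 10.2% (6.14 to 15.6) in control and 25.4% (18.1 to 33.9) in cKO, and without thinning 26.0% and 39.7%. Thinning to 5000 UMIs leaves out barcodes with fewer UMIs, and the median depth of the class was 4208 in control and 6567 in cKO. The barcodes that remained had shares of 35.8% and 36.1%, which are not comparable with the other shares. Since shares and levels disagree, no order is read from them. Free RNA could make up at most 27.5% of the UMIs of control Leydig cells against 3.45% in cKO, and with free RNA subtracted the Leydig ratio of Kmt2c was -0.33, and that of Dpy30 0.62 against 0.10 without subtraction. In Sertoli cells Kmt2d had 44 UMIs against 33 (-0.17, -0.87 to 0.52) and Ncoa6 39 against 29 (-0.18, -0.93 to 0.55), and these intervals include the ratios of late spermatocytes.

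**Figure D2:**
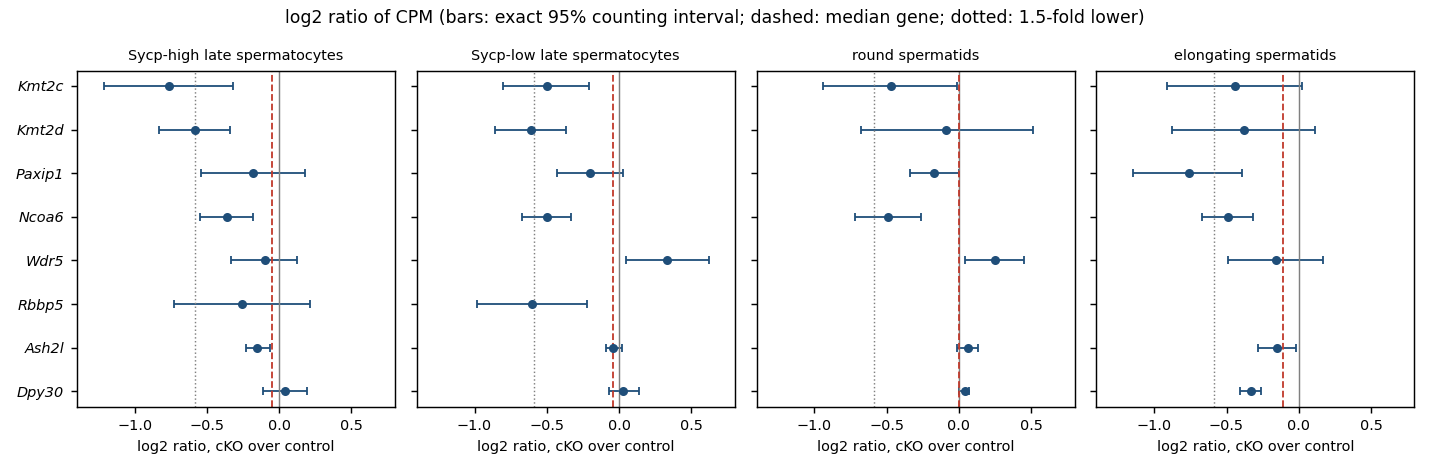
log2 ratio of cKO over control (x axis) for the genes with at least 100 UMIs in each of 4 classes, with bars for exact 95% counting intervals, a dashed line at the median of all genes, a solid line at 0 and a dotted line at 1.5-fold lower. Kmt2c, Kmt2d and Ncoa6 lie left of 0 with their whole intervals in both late spermatocyte classes, whereas Dpy30 lies at 0.04 and 0.03.

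Gene length moved with these ratios and is given beside them. In Sycp-high late spermatocytes the median log2 ratio of all genes was 0.03 for genes spanning under 20 kb, -0.12 for 20 to 100 kb and -0.22 for over 100 kb, and in Sycp-low late spermatocytes 0.03, -0.11 and -0.21. Of the somatic classes, Leydig cells had the same order, at 0.11, -0.09 and -0.32, and Sertoli cells did not, at 0.04, -0.10 and -0.06. Kmt2c spans 227 kb, Ncoa6 83.3 kb, Paxip1 51.6 kb, Kmt2d 42.4 kb, Ash2l 31.7 kb, Rbbp5 28.3 kb, Dpy30 24.5 kb and Wdr5 21.4 kb. Among genes of 20 to 100 kb, 4.45% had a ratio at or below that of Kmt2d in Sycp-high and 4.15% in Sycp-low late spermatocytes. For Ncoa6 these shares were 16.2% and 8.91%, and for Kmt2c, among genes over 100 kb, 2.18% and 13.9%. What length has to do with the lower levels was not tested. Median mitochondrial shares were 3.07% and 3.54% in Sycp-high and 1.55% and 1.64% in Sycp-low late spermatocytes of control and cKO, and median depths 16035 and 12771, and 23261 and 20992 UMIs. Their part in the result was not tested. The early meiotic marker list, which falls through these stages, had medians of 59.6 and 63.4 per 10000 UMIs in Sycp-high and 12.2 and 11.1 in Sycp-low late spermatocytes.

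**Figure D3:**
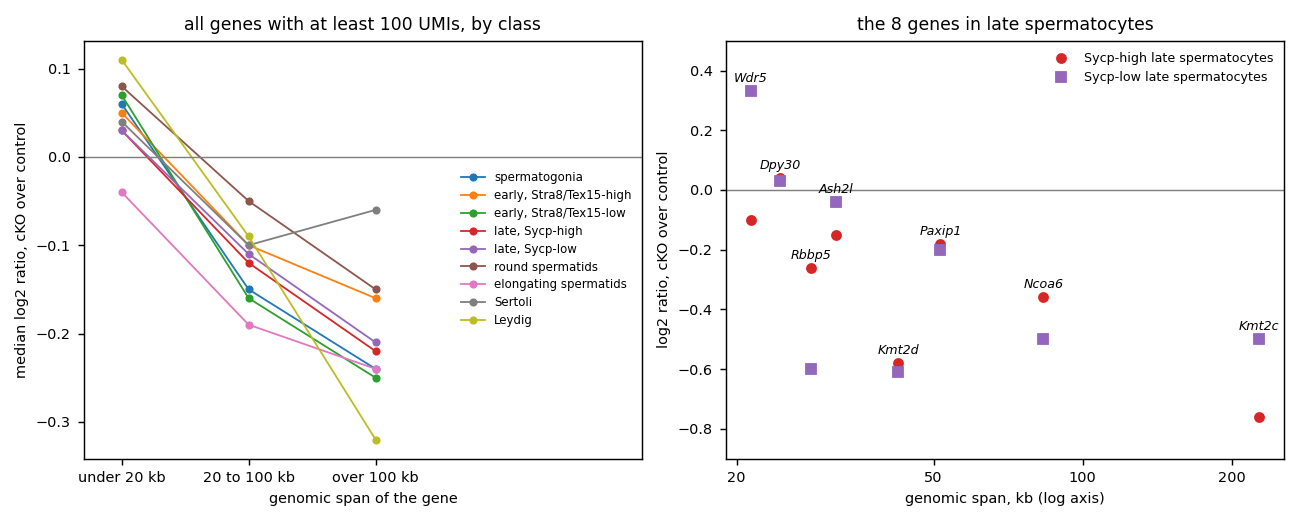
Left, median log2 ratio of cKO over control over all genes with at least 100 UMIs (y axis) for genes of 3 ranges of genomic span (x axis), with a line per class. Right, log2 ratio of the 8 genes (y axis) in both late spermatocyte classes against their genomic span in kb (x axis, log axis), from 21.4 kb for Wdr5 to 227 kb for Kmt2c.

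Related genes, from 4 lists, were read in the same way. Of 14 other KMT2 and SET1 family subunits, 13 had at least 50 UMIs, the exception being Pagr1a, which encodes a partner of PAXIP1 in the same complex, with 3 UMIs in control and 1 in cKO. Of the 13, 1 was at least 1.5-fold lower in cKO over all barcodes and 0 were higher, with a median log2 ratio of -0.19, beside 4.02% lower and 1.38% higher among genes with at least 100 UMIs. The lowest was Kmt2a, the enzyme of the MLL1 complex, at 8.91 and 5.55 CPM in control and cKO (-0.68, interval -0.83 to -0.54). The highest was Bod1, a protein related to the SET1 subunit BOD1L, at 77.8 and 81.2 (0.06). Ratios over all barcodes also hold differences in class shares. Where its levels were highest, Kmt2a had -0.31 (-0.59 to -0.04, spermatogonia) and -0.11 (-0.57 to 0.33, Stra8/Tex15-high early spermatocytes). It had -0.73 (-1.16 to -0.31) in Stra8/Tex15-low early spermatocytes and -0.81 (-1.59 to -0.08) in Leydig cells. Kmt2b, the enzyme of the MLL2 complex, had 49.6 and 53.2 CPM in Sycp-high late spermatocytes (0.10, -0.07 to 0.27), beside the values of Kmt2d above. Kmt2a went the other way in that class, with 30 UMIs against 10 (-1.07, -2.27 to 0.00), below the minimum of 50. The median there was -0.09 over the 11 listed subunits with enough UMIs. Of the 3 genes in the list of H3K27 demethylases, Kdm6a was lowest and Kdm6b highest (-0.10, -0.22 to 0.02), with its Y-linked member Uty at -0.16 (-0.45 to 0.13).

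Among 6 demethylases of H3K4, which remove the mark that KMT2 enzymes place, 0 were 1.5-fold lower or higher over all barcodes, beside the same 4.02% and 1.38% of genes, with a median of -0.29. The lowest was Kdm5a (42.9 and 31.4 CPM, -0.45) and the highest Kdm1b (2.42 and 3.07, 0.34). The 4 enhancer acetyltransferases and neighbours of PAXIP1 in DNA repair had a median of -0.37 and, beside those shares, 0 past 1.5-fold, with Ep300 lowest (16.7 and 11.3 CPM, -0.56, interval -0.67 to -0.46) and Trp53bp1 highest (-0.02). In Sycp-low late spermatocytes the medians of the 2 lists were -0.40 over the 4 H3K4 demethylases with enough UMIs and -0.42. In the same class the median was -0.14 over 12 other KMT2 and SET1 family subunits and -0.35 over the 8 genes.

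Chromatin at the start sites was described from sorted cKIT+ cells. In the deposited ATAC-seq lists the regions of the library labelled cKO 1 carry the name C2, the same as those of control 1, and although the lists differ (14635 and 19118 regions) this label is in doubt, so counts are given with and without it. A region is a stretch that the authors' peak caller found enriched, and its fold is the authors' own value. Within 1000 bases of a start site, 6 of the 7 genes in the table had a region in all 5 libraries, beside 26.1% of 27025 genes, and the same 6 in the 4 libraries other than cKO 1, beside 31.6%. Genes with several start sites were counted when any of them had a region. Within 250 bases, 4 of the 7 had a region in all 5 libraries, beside 24.4% of genes, and 4 in the libraries other than cKO 1, beside 29.3%. Kmt2c then had none in any library and Kmt2d had one in control 2 alone.

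Paxip1, whose printed sequence lies inside the listed regions, had folds of 7.17 and 8.52 in control and of 5.47, 6.40 and 8.80 in cKO. The values of the genotypes overlapped. Dpy30 had 3.89 and 6.59 against 5.81, 5.73 and 4.82 at the start site whose sequence is printed, and no region at its start site 17:74323944, in the CpG-poor window. Kmt2c had 4.63 and 4.42 against 5.13, 5.26 and 5.22, from regions that began between 25499067 and 25499089, upstream of the printed sequence. These values did not overlap between genotypes, with or without cKO 1, whose label is in doubt. With 2 control and 3 cKO libraries such a split can readily arise by chance, and its share over all genes was not counted. A fold within a peak list also depends on the depth of its library, and list sizes ran from 14635 to 40497 regions. No test was run on these values. Kmt2d (5.36 and 6.86 against 3.80, 5.36 and 6.47), Wdr5 (4.17 and 5.06 against 4.64, 4.09 and 6.31) and Rbbp5 (5.63 and 5.56 against 4.00, 4.03 and 7.20) overlapped between genotypes. Ncoa6 had no region at its start site in the table. At the outer end of the gene, within 1000 bases of position 155473911, control 1, control 2 and cKO 3 had a region, and cKO 1 and cKO 2 had none.

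**Figure D4:**
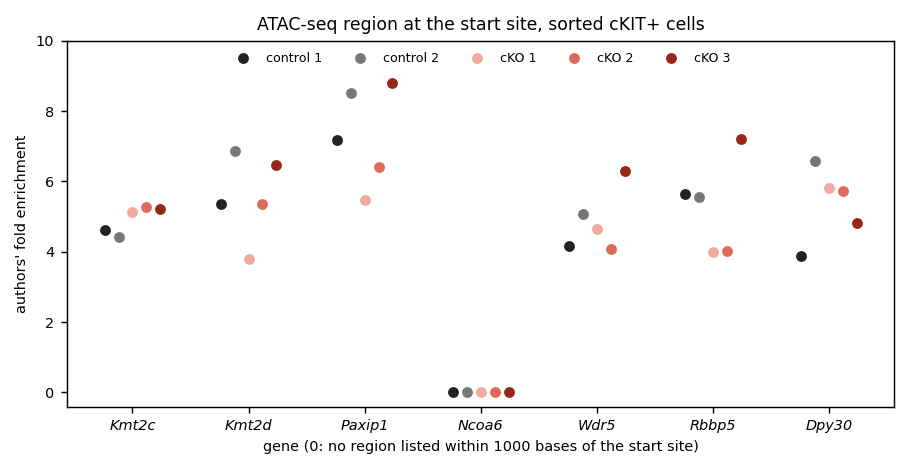
The authors' fold enrichment (y axis) of the ATAC-seq region within 1000 bases of the start site of each gene (x axis) in 2 control and 3 cKO libraries of sorted cKIT+ cells, with 0 where no region was listed. Folds run from 3.80 for Kmt2d in cKO 1 to 8.80 for Paxip1 in cKO 3, and Ncoa6 has no region at the start site used.

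H3K27me3, the mark that KDM6A removes, was not listed at any of these start sites. In the deposited CUT&Tag lists, 0 of 7 genes had a region within 1000 bases of a start site in any of the 5 libraries, beside 18.3% of 27025 genes with one in at least 1 library and 6.06% with one in all 5. Over the whole spans of the 8 genes, Ash2l included, again 0 had a region in any library, beside 25.8% of 21887 protein-coding genes. A list holds only regions above the authors' limit, so weaker signal cannot be seen in it. The IgG list had none at these start sites either.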

How the data were processed

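The single-cell matrices hold raw UMI counts per gene and barcode for every barcode of the kit, and Cell Ranger appears in the header of each file, per the file headers. Cell Ranger and Seurat 4.1.0 with build mm10 are named in the submitters' processing notes. For the ATAC-seq lists these notes name cutadapt, Bowtie2 and MACS2. The deposited lists hold, per region, the caller's fold enrichment (a ratio) and a q-value as its -log10. For CUT&Tag the notes name cutadapt, Bowtie2, SAMtools, deepTools and SEACR, and the deposited lists give the highest signal per region, whose scaling the labels do not state. Tool versions other than that of Seurat are not given there.

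Counts were summed per library and class over barcodes with at least 3000 UMIs and divided by the UMIs of the class (CPM). Gates used UMIs of each marker list per 10000 UMIs of the barcode: at least 8 for spermatogonia, 50 for early spermatocytes (split at 8 of Stra8, Tex15 and Zcwpw1), 30 for late spermatocytes (split at 30 of the early list), 20 for round spermatids, 1000 for elongating spermatids, 50 for Sertoli cells and 50 for Leydig cells, with upper limits on other lists. No doublet caller was run: barcodes that met the markers of more than 1 class were left out of all classes. Intervals are exact (Poisson, binomial, or binomial given the summed count) at 95%, with scipy 1.17.1 in Python 3.11.15. The ratio step was tested on simulated counts.

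The members and lists were chosen with earlier results of these data known. All 8 members are named. Of the 4 lists, the highest and lowest log2 ratio among genes with at least 50 UMIs are named. Others beside them (Kmt2b, Uty and the class values of Kmt2a) were chosen after their values were seen. Per member, the 3 genes with the highest Pearson r over classes are named. Alternatives were a minimum of 2000 or 5000 UMIs, gates 1.5 times stricter, classes from 22 clusters (leidenalg 0.10.2), subtraction of free RNA (barcodes with at most 100 UMIs), scaling by the median ratio, other depths of thinning and a window of 250 bases. Bulk RNA-seq was not used here, since its files do not pair transcripts with genes. No promoter region of Ash2l was used here.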

Additional observations from a re-analysis of the deposited data

How the results depend on the processing

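Over 8 alternatives and those added after the data were seen, 554 of 601 recomputed values stayed within the counting interval of the reported value or, for counts, within 1.5 times it, and 47 did not. Leaving out the 30 barcodes found in both libraries moved none of the 83 values recomputed without them outside these limits. They are few beside 11252 and 8520 barcodes, so this alternative could hardly move a sum, and its 83 values are part of the 554. It did change the highest cKO class of Paxip1 from Stra8/Tex15-high early spermatocytes to spermatogonia, which were level at 28.1 CPM. Of the shares of cells with a UMI, 7 moved and 1 stayed without thinning. The same numbers held with thinning to 5000 UMIs, which also leaves out barcodes with fewer UMIs. With classes from clusters, control levels in CPM were 157 for Kmt2c in Stra8/Tex15-high early spermatocytes, 73.2 for Kmt2d in Sertoli cells, 90.1 for Ncoa6 in Stra8/Tex15-low early spermatocytes, 345 for Dpy30 in round spermatids and 87.0 for Wdr5 in spermatogonia. Dpy30 in round spermatids had 357 at a minimum of 2000 UMIs, with a log2 ratio of 0.09 there and 0.14 over all barcodes, and 391 with stricter gates. With the class shares of the control library, log2 ratios over gated barcodes, without those of no class, were -0.35 for Kmt2c, -0.24 for Paxip1 and -0.04 for Dpy30.

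The number of genes at least 1.5-fold lower is fragile, and several ratios lie near that limit. Over all barcodes it was 0 at a minimum of 2000 UMIs and 3 at 5000, against 1. In Stra8/Tex15-low early spermatocytes it was 1 at 5000 UMIs, against 0. Sycp-high late spermatocytes gave 0 with stricter gates and 2 with clusters, against 1. Sycp-low late spermatocytes gave 1 at 2000 UMIs, 1 with stricter gates, 1 with clusters and 0 with scaling by the median ratio, against 2. With stricter gates both Kmt2d and Rbbp5 had ratios past the limit in this class, as given above. The reported counts hold only genes with at least 100 UMIs, and the UMIs of Rbbp5 with stricter gates are not given here. Round spermatids gave 3 at 2000 UMIs, against 0, and elongating spermatids 2 with clusters and 2 with free RNA subtracted, against 1. The causes were not tested. Ncoa6 in Sycp-high late spermatocytes ranged from -0.37 to -0.31 and Kmt2d from -0.67 to -0.50 over the alternatives. The class with the highest level was kept in 89 of 96 combinations of gene, library and alternative. No paired analysis was possible because the single-cell libraries have 1 replicate each, and the region values, which are the authors' own within each list, come from no test.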
